A study of Mus musculus with 6 samples.

Results

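Transcript levels of 10 genes of antigen presentation and of dendritic cells were measured by RNA sequencing in mouse corneas. They were taken by symbol from a table of 22007 genes, and all 10 were found. They were chosen by name. H2-Aa, H2-Ab1, H2-Eb1, H2-DMa, H2-DMb1, Cd74 and Ciita belong to the class II pathway, and Itgax, Cd207 and Irf8 are used as genes of dendritic cells. The OFBI group had an open-field blast injury, a blast wave from 350 g of the explosive C-4 at 3 m from awake mice, and its corneas were taken 12 months later. The Naive group carries that name and the same 12 months in the labels, which name no blast for it. Both groups were male C57BL/6J mice, with 3 libraries each, and each library was made from pooled corneas, so that spread between single animals was not measured. How many corneas went into a pool is not given in the sources used here. All 6 libraries carry batch number 4.

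Class II molecules are heterodimers of an alpha and a beta chain that show peptides from the endocytic pathway to CD4 T cells. The invariant chain, encoded by Cd74, escorts new dimers to the endosome, where H2-DM swaps its remnant for an antigenic peptide. Transcription of the chains, of Cd74 and of the H2-DM genes depends largely on the coactivator CIITA, which interferon gamma induces and which acts through factors bound to conserved promoter boxes. In the cornea, class II is carried mainly by resident dendritic cells and by some macrophages, and these cells are most frequent near the limbus.

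The promoter boxes are shown because CIITA acts through them and because H2-Aa, H2-Eb1 and H2-DMb1 share them. The stretches below come from RefSeq promoters on GRCm38.p6, each read 5′ to 3′ on the strand of its gene with 10 flanking bases on either side. Capitals mark the X1 core CTNGNAAC, the CRE-like box TGACGTCA where it is present, and the Y box TGATTGG. The promoter window runs from 250 bases before to 50 bases after the start.
H2-Aa: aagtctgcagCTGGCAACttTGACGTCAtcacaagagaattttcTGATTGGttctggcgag
H2-Eb1: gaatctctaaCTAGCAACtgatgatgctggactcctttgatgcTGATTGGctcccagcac
H2-DMb1: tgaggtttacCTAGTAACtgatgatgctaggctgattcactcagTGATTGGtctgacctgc
These lie at chr17:34287857-34287917 on the minus strand for H2-Aa, at chr17:34305763-34305822 on the plus strand for H2-Eb1 and at chr17:34153084-34153144 on the plus strand for H2-DMb1. The first bases of the X1 core and the Y box were 34 bases apart in H2-Aa, 33 in H2-Eb1 and 34 in H2-DMb1. Counted from the RefSeq starts, the X1 core began 84, 94 and 97 bases upstream in H2-Aa, H2-Eb1 and H2-DMb1 in that order. The RefSeq start of H2-DMb1 lies downstream of the start of its GENCODE span given below, so its stretch falls within that span. A pair of X1 core and Y box on the same strand, with starts 20 to 45 bases apart, was found in 27 of 32851 promoters, or 0.0822%. Counted singly, the X1 core was in 13.2% of promoters, the CRE-like box in 1.79% and the Y box in 7.82%, counting both strands. The letters searched were chosen with these promoters in view, so the match describes them and tests nothing. The Itgax window held the X1 core alone, 1 of the 2 Irf8 windows held the Y box alone, and the windows of H2-DMa and Cd207 held neither. Promoters of H2-Ab1, Cd74 and Ciita were not used here.

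No gene of the class II pathway passed the test for a difference between OFBI and Naive corneas. Of the 10 genes, 9 were expressed highly enough to be tested, and 1 of them, Itgax, was lower in OFBI corneas, where it had no count in any library. None was higher, and the other 8 did not pass the test (edgeR quasi-likelihood test, two-sided, Benjamini-Hochberg adjusted p below 0.05 over all genes). Across the 13941 genes tested, 18.8% were called, 8.41% as higher and 10.4% as lower in OFBI. The median log2 fold change, OFBI over Naive, was 0.37 over the 9 tested members and -0.20 over all genes tested. With scaling by library size alone, the median of all genes was -0.40, and 29.8% of the called genes were higher, against 44.8% with TMM scaling.

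Depth separated the groups completely. Totals were 1173472 to 3410476 estimated counts in OFBI libraries and 41971752 to 47809779 in Naive libraries, a mean difference of 16.7-fold, and 47.0% to 57.4% of genes had a count in OFBI libraries, against 72.4% to 72.9% in Naive libraries. Depth and blast exposure therefore cannot be told apart. The values also tend to rise in steps of about 4, so that a count of 4 may stand for a single sequenced fragment. Of counts from 1 to 40, 39.41% to 42.65% were multiples of 4 in OFBI libraries and 48.28% to 50.5% in Naive libraries. The factor of 4 is thus an inference, and the limits and Poisson intervals read as fragments rest on it. A limit of 3 fragments, or 12 counts, over the 3 OFBI libraries corresponds to 1.61 CPM, the count scaled to library size and TMM factor. Without Naive replicate 1, 2 or 3 the calls over the whole table were 106, 0 and 104. Where edgeR called 0, 2441 genes had an unadjusted p below 0.05, and DESeq2 called 1037 genes higher and 498 lower. With any 1 Naive library left out, edgeR also called none of the members, of the other class II and dendritic cell genes, or of the leukocyte, liver and heart genes described below.

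**Figure D1:**
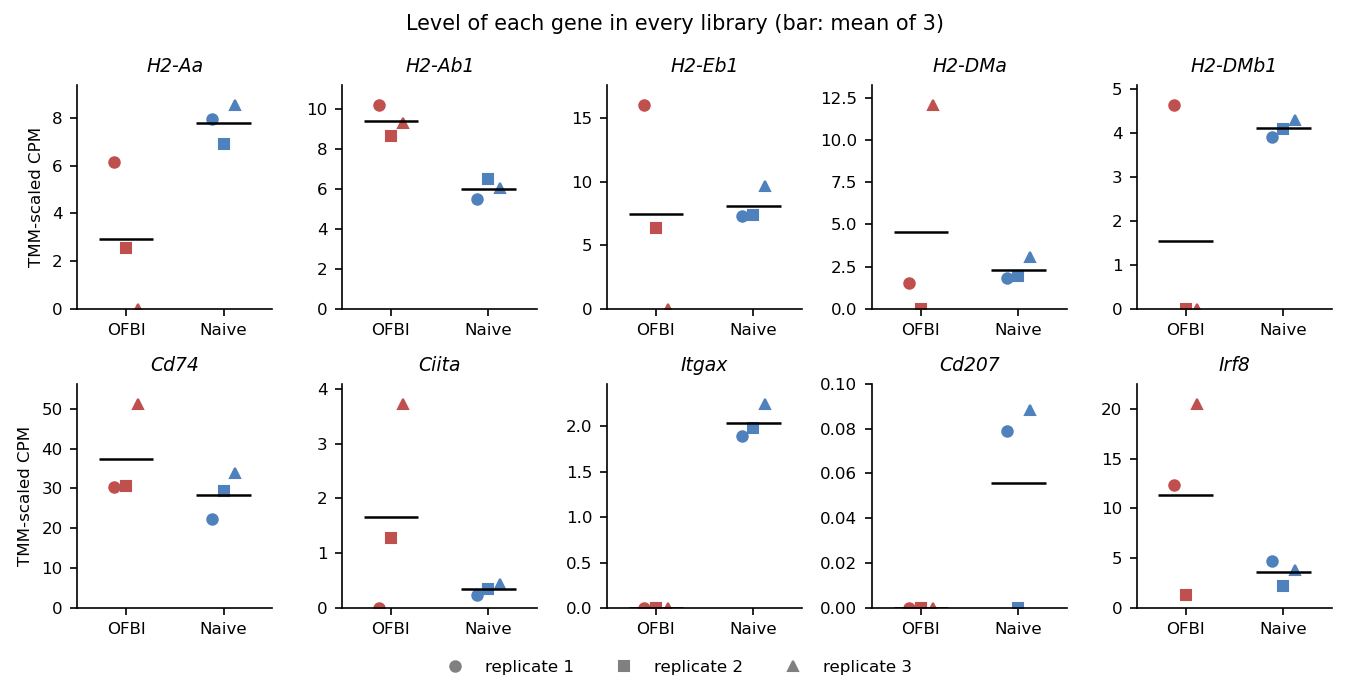
Level of each of the 10 genes in CPM with TMM scaling (y axis, own scale per gene, from 0) in the 3 OFBI and 3 Naive libraries (x axis); symbols mark the replicate and bars the mean of 3. Naive points lie close together, while OFBI points spread widely for most genes and lie on 0 in all 3 libraries for Itgax and Cd207.

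The 3 genes of the classical chains gave different pictures. H2-Aa, the alpha chain of the A molecule (chr17:34282744-34287823, minus strand, GRCm38), had 20, 8 and 0 counts in OFBI libraries and 403, 321 and 389 in Naive libraries. In CPM these are 6.18, 2.56 and 0, against 7.96, 6.92 and 8.57, a mean of 2.91 ± 3.10 in OFBI and 7.81 ± 0.833 in Naive (SD, n = 3 each). Every OFBI library lay below every Naive library, but the log2 fold change of -1.26 (SE 0.82, 95% interval -3.20 to 0.67) did not pass edgeR's test (adjusted p = 0.336). Without OFBI replicate 1, the OFBI library with the most counts of it, DESeq2 and limma-voom called H2-Aa, and edgeR did not.

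H2-Ab1, the beta chain that pairs with H2-Aa (chr17:34257689-34269419, plus strand), went the other way. It had 33, 27 and 10 counts in OFBI libraries and 278, 302 and 274 in Naive libraries, or 10.2, 8.64 and 9.31 CPM, against 5.49, 6.51 and 6.03. All 3 OFBI libraries were above all 3 Naive libraries, with means of 9.38 ± 0.781 and 6.01 ± 0.510 CPM. OFBI exceeded Naive by 0.64 on the log2 scale (SE 0.42, interval -0.34 to 1.63; edgeR adjusted p = 0.332). Groups that do not overlap were common in this table: in 46.4% of the genes tested the 3 OFBI and 3 Naive libraries did not overlap, and among the 9 tested members this held for 3, H2-Aa, H2-Ab1 and Itgax.

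H2-Eb1 (chr17:34305867-34316674, plus strand) encodes the beta chain of the E molecule. C57BL/6 mice are known not to express its alpha partner H2-Ea, which was not analysed here, so its transcript does not lead to an E dimer. It had 52, 20 and 0 counts in OFBI libraries and 372, 341 and 439 in Naive libraries. The CPM values of 16.1, 6.40 and 0 in OFBI ran from above to below the Naive values of 7.34, 7.35 and 9.67. The log2 fold change was -0.02 with an interval from -2.13 to 2.10 (edgeR adjusted p = 0.992). Gm20513 lies antisense within its span, and the strand setting of the counting is not given in the sources used here, so reads of the overlap cannot be assigned.

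Summed, the 3 chains gave 32.4, 17.6 and 9.31 CPM in OFBI libraries and 20.8, 20.8 and 24.3 in Naive libraries. The means of 19.8 ± 11.7 and 21.9 ± 2.01 differed by less than the spread of the OFBI libraries. OFBI replicate 3 held 10 counts over the 3 genes, all from H2-Ab1.

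A ratio of genes within a library does not use the scaling between libraries. Per kilobase of exon, H2-Aa stood to H2-Ab1 at 0.41, 0.20 and 0 in OFBI libraries and at 0.98, 0.719 and 0.96 in Naive libraries. The alpha chain was thus near parity with its beta chain in Naive corneas and below it in every OFBI library. In CPM, all OFBI libraries lay below all Naive libraries for H2-Aa and above them for H2-Ab1. The separation of the ratio follows from those values and is not a further result. The ratios were chosen with earlier results known. The length used, the union of all annotated exons, bears on the parity but cancels in the comparison between groups. An exact permutation test of 3 against 3 libraries cannot go below p = 0.10, and the OFBI ratios rest on 28 counts of H2-Aa. H2-Eb1 to H2-Ab1 was 2.08, 0.979 and 0 in OFBI and 1.77, 1.49 and 2.12 in Naive, and these ranges overlapped. Against the class I gene H2-K1, which most cells express, H2-Ab1 stood at 0.0516, 0.0402 and 0.0280 in OFBI and at 0.0384, 0.0492 and 0.0506 in Naive, also overlapping. By these ratios and the H2-Ab1 levels, H2-K1 itself was higher in every OFBI library than in any Naive library. It was thus not a constant reference.

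**Figure D2:**
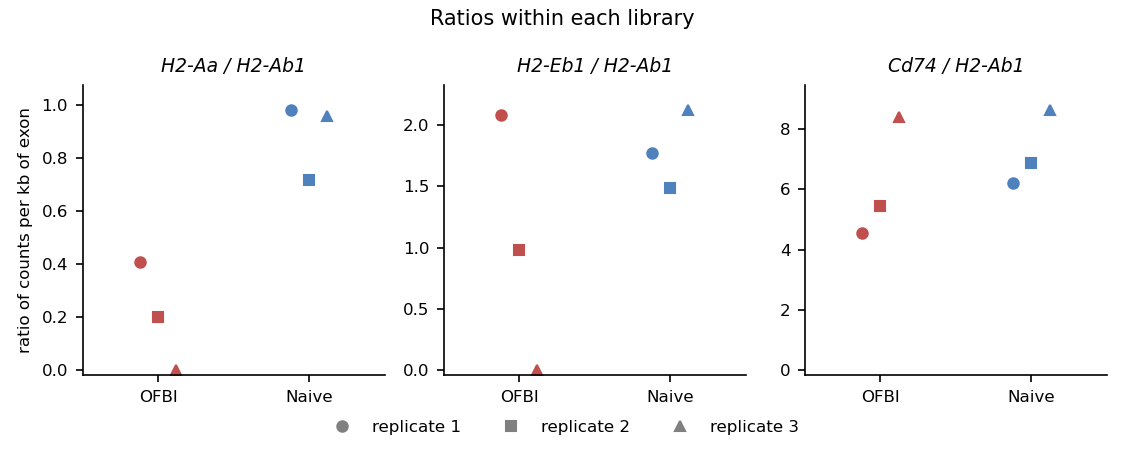
Ratio of counts per kilobase of exon between genes of the same library (y axis) for OFBI and Naive libraries (x axis), with symbols for replicates. H2-Aa over H2-Ab1 lies at 0.41 or below in OFBI and at 0.719 or above in Naive libraries, whereas the other plotted ratios, H2-Eb1 and Cd74 over H2-Ab1, overlap between the groups.

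Cd74, the invariant chain (chr18:60803848-60812652, plus strand), was the most abundant of the 10 genes and the best measured. It had 98, 96 and 55 counts in OFBI libraries and 1126, 1357 and 1543 in Naive libraries, or 30.3, 30.7 and 51.2 CPM, against 22.2, 29.2 and 34.0. The means were 37.4 ± 12.0 in OFBI and 28.5 ± 5.91 in Naive, and the groups overlapped. On the log2 scale OFBI exceeded Naive by 0.37 (SE 0.30, interval -0.34 to 1.08; edgeR adjusted p = 0.444), the narrowest interval among the members. Cd74 to H2-Ab1 per kilobase was 4.54, 5.44 and 8.41 in OFBI and 6.19, 6.87 and 8.61 in Naive, with overlap. Against H2-K1 it was 0.235, 0.219 and 0.235 in OFBI, just below the 0.238, 0.338 and 0.436 of Naive libraries. H2-K1 itself was higher in OFBI libraries, which lowers this ratio there.

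The peptide exchange factor H2-DM is made of the products of H2-DMa (chr17:34119541-34139101, plus strand) and H2-DMb1 (chr17:34153072-34160230, plus strand). H2-DMa had 5, 0 and 13 counts in OFBI libraries and 93, 90 and 138 in Naive libraries, or 1.54, 0 and 12.1 CPM, against 1.84, 1.94 and 3.04. OFBI replicate 3 was above all Naive libraries and the other OFBI libraries below them (log2 fold change 0.78, SE 1.28; edgeR adjusted p = 0.721). Without that library the log2 fold change turned to -1.55. Brd2 and other genes overlap its span.

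H2-DMb1 had 15, 0 and 0 counts in OFBI libraries and 198, 190 and 195 in Naive libraries, or 4.63, 0 and 0 CPM, against 3.91, 4.09 and 4.29. It was thus found in a single OFBI library, at about the Naive level there (log2 fold change -1.20, SE 1.17; edgeR adjusted p = 0.523). Leaving out OFBI replicate 1 removed all its OFBI counts and made it a lower call (edgeR adjusted p = 0.0274; also called by DESeq2 and limma-voom). Its near copy H2-DMb2 had no count in OFBI libraries and 8, 0 and 7 in Naive libraries, and reads could be split between them.

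Ciita, the class II coactivator (chr16:10480059-10528418, plus strand), was near the limit of detection in all libraries. It had 0, 4 and 4 counts in OFBI libraries and 12, 16 and 20 in Naive libraries, that is 0, 1.28 and 3.72 CPM, against 0.237, 0.345 and 0.440. At the mean Naive level 2.53 counts were expected over the 3 OFBI libraries, and 8 were found, under the limit of 12. The pooled OFBI level was 1.08 CPM with an exact 95% Poisson interval of 0.130 to 3.89, which holds the Naive mean of 0.341 CPM, and edgeR's test did not call it (adjusted p = 0.251). Without OFBI replicate 1, where it had no count, DESeq2 and limma-voom called it. It reached the count filter in 2 OFBI libraries and 1 Naive library, and Dexi overlaps its span.

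Itgax encodes CD11c, the integrin alpha chain by which dendritic cells are usually sorted (chr7:128129547-128150657, plus strand). It had 0 counts in all 3 OFBI libraries and 96, 92 and 102 in Naive libraries, where its level was 1.90, 1.98 and 2.25 CPM. At the Naive mean of 2.04 ± 0.182 CPM, 15.2 counts were expected over the OFBI libraries, or about 4 fragments at 4 counts each. The Naive mean stood 1.27-fold above the limit of 12 counts over the group. That limit was set by choice and gives no upper bound on the OFBI level. EdgeR called Itgax lower in OFBI corneas (adjusted p = 0.0247). The exact 95% Poisson interval of the pooled OFBI level, read as fragments, reached 1.98 CPM, just under the Naive mean. In bulk tissue, fewer cells of a type and less RNA per cell cannot be told apart.

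Many genes as rare as Itgax were also without counts in OFBI libraries. Itgax passed the count filter through the Naive libraries alone. Of the 525 tested genes within 1.2-fold of its Naive mean, 125 (23.8%) had no count in any OFBI library, and all 125 were called lower, so the call adds nothing to the 0 counts themselves. Over the whole table, 831 tested genes were at 0 in all OFBI libraries and 742 of them were called lower. Dividing all counts by 4, as for fragments, took the adjusted p of Itgax to 0.0733 with edgeR. When Naive libraries were thinned to the depth of OFBI replicate 1, or any Naive library was left out, Itgax no longer passed edgeR's filter and was not tested. DESeq2 without Naive replicate 3 did test it and did not call it (adjusted p = 0.385).

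Cd207, the langerin of Langerhans cells (chr6:83671215-83677857, minus strand), had no count in OFBI libraries and 4, 0 and 4 in Naive libraries. It was under the limit in both groups and was not tested. Its Naive level would have given 0.414 counts over the 3 OFBI libraries, so 0 counts could not be told from that level.

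Irf8 (chr8:120736358-120756694, plus strand) encodes a transcription factor needed for several dendritic cell and monocyte lineages and is also expressed in B cells. It had 40, 4 and 22 counts in OFBI libraries and 238, 102 and 172 in Naive libraries, or 12.4, 1.28 and 20.5 CPM, against 4.70, 2.20 and 3.79. OFBI replicates 1 and 3 were above all Naive libraries and OFBI replicate 2 was below them. The means were 11.4 ± 9.64 and 3.56 ± 1.27 CPM, and the fitted log2 difference was 1.62 (SE 0.90, interval -0.51 to 3.75; edgeR adjusted p = 0.264). Without OFBI replicate 2, Irf8 was called higher, by 2.12 on the log2 scale (SE 0.49; edgeR adjusted p = 0.0359). DESeq2 without that library also called Irf8, and limma-voom did not. Gm20388 overlaps its span.

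**Figure D3:**
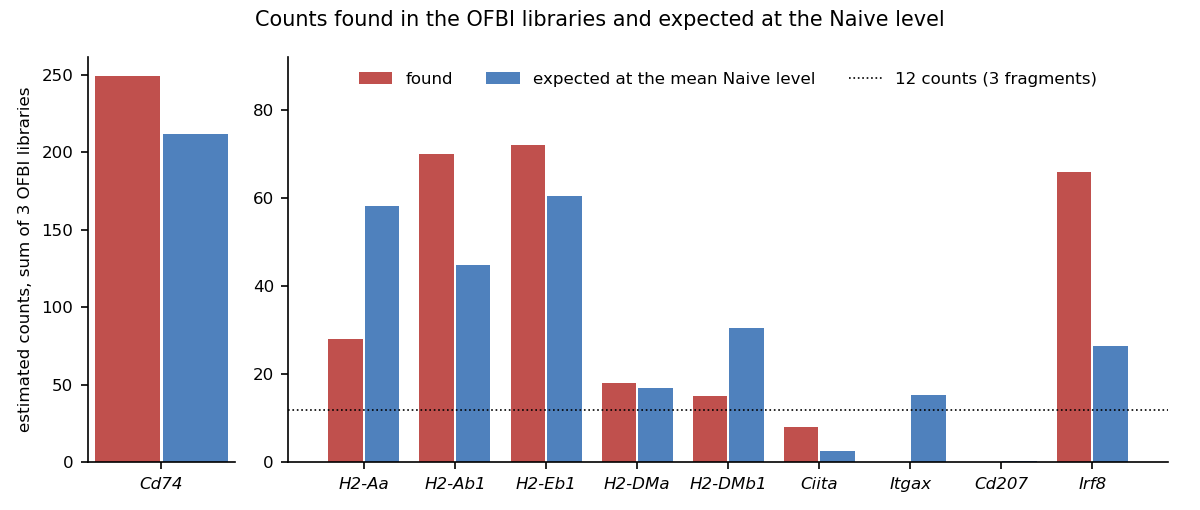
Estimated counts summed over the 3 OFBI libraries (y axis, from 0; Cd74 on its own axis), as found and the sum expected if each gene stood at its mean Naive level, with a dotted line at 12 counts. H2-Aa (28 found, 58.1 expected), H2-DMb1 (15 and 30.5) and Itgax (0 and 15.2) fall short, while H2-Ab1 (70 and 44.7) and Irf8 (66 and 26.5) exceed the expectation.

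The OFBI depth set how much each gene could show. Over the 3 OFBI libraries, 249 counts of Cd74 were found where 212 were expected at the Naive level, 70 of H2-Ab1 where 44.7 were expected and 72 of H2-Eb1 where 60.4 were expected. For H2-DMa 18 were found and 16.9 expected. From these sums, read as fragments, exact 95% Poisson intervals of the pooled OFBI level were 25.7 to 42.9 CPM for Cd74, 5.53 to 15.0 for H2-Ab1, 5.74 to 15.3 for H2-Eb1 and 5.12 to 14.3 for Irf8. They were 1.51 to 7.76 CPM for H2-Aa, 0.726 to 5.90 for H2-DMa and 0.519 to 5.31 for H2-DMb1. These intervals cover counting error only. The Naive means of Cd74, H2-Ab1, H2-Eb1, H2-DMa and H2-DMb1 lay inside them, and those of H2-Aa and Irf8 lay outside.

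**Figure D4:**
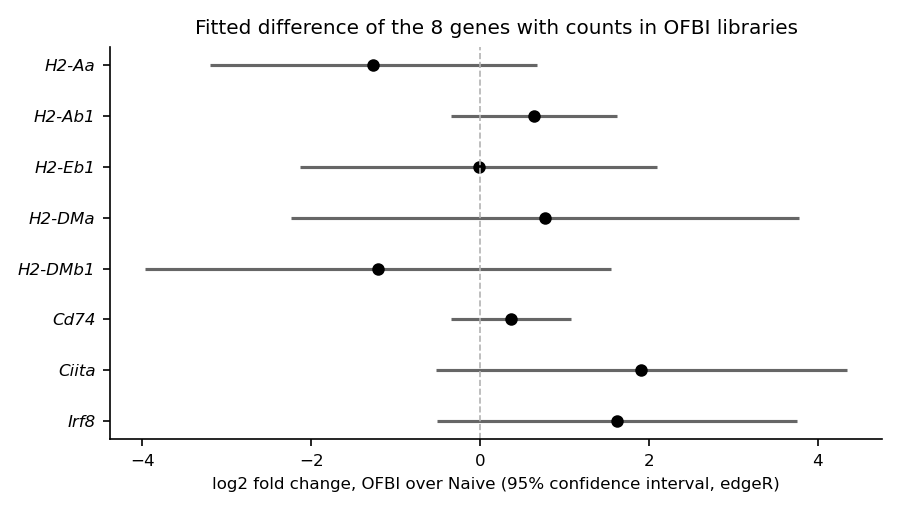
Fitted log2 fold change, OFBI over Naive (x axis), of the 8 genes with at least 1 count in OFBI libraries, with edgeR 95% confidence intervals as lines. All 8 intervals cross 0, and those of Cd74 and H2-Ab1 are the narrowest.

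Levels per kilobase of exon allow a rough comparison between genes. The length used was the union of all annotated exons of a gene, so a gene with exons not expressed here would be placed too low. In OFBI corneas the order was Cd74 at 22.3 ± 7.12 CPM per kilobase, H2-Eb1 at 3.85 ± 4.16, H2-Ab1 at 3.65 ± 0.304, Irf8 at 1.61 ± 1.37, H2-DMa at 1.32 ± 1.91, H2-DMb1 at 0.919 ± 1.59, H2-Aa at 0.767 ± 0.817 and Ciita at 0.175 ± 0.198, with Itgax and Cd207 at 0. In Naive corneas it was Cd74 at 16.96 ± 3.52, H2-Eb1 at 4.18 ± 0.689, H2-DMb1 at 2.44 ± 0.114, H2-Ab1 at 2.34 ± 0.199, H2-Aa at 2.06 ± 0.219, H2-DMa at 0.659 ± 0.193, Irf8 at 0.505 ± 0.179, Itgax at 0.425 ± 0.0380, Cd207 at 0.0366 ± 0.0318 and Ciita at 0.0357 ± 0.0107. Cd74 stood above every other member in both groups by more than the spread. Among OFBI libraries the neighbours from H2-Eb1 down to Ciita differed by less than their spread, except that H2-Ab1 was above Irf8 by more than the SD of either. In Naive libraries H2-DMb1 did not differ from H2-Ab1 beyond the SD of either, nor did H2-DMa from Irf8 or Cd207 from Ciita. Irf8 exceeded Itgax by less than its own SD, though by more than that of Itgax.

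The genes whose levels most resembled the mean log2 level of the 3 classical chains over the 6 libraries were Ddx50, Eml4 and Asb7 (Pearson r = 0.995 each), and Tfap2c and Tgm5 (r = 0.994 each), of 8009 genes with at least 10 counts in every library. Each was lowest in OFBI replicate 3, as H2-Aa and H2-Eb1 were, while H2-Ab1 was not. Eml4 had 36.5, 23.4 and 11.2 CPM in OFBI libraries and 31.0, 29.1 and 31.0 in Naive libraries. The likeness is a description that rests on the spread of the OFBI libraries.

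The other genes of class II assembly and peptide supply were also without a call. Of the 17 listed, 12 were analysed and 6 tested, with 0 higher and 0 lower and a median log2 fold change of 0.01. Before adjustment 1 of them, Ctsb, had a p below 0.05, and DESeq2 called it lower. Ctss, the cathepsin that trims the invariant chain, had 32.1, 26.6 and 32.6 CPM in OFBI libraries and 21.3, 24.6 and 28.7 in Naive libraries, which overlapped (log2 fold change 0.29, SE 0.24; edgeR adjusted p = 0.454). Ctsb, a lysosomal cathepsin, was at 272 ± 37.5 CPM in OFBI and 362 ± 7.82 in Naive (log2 fold change -0.41, SE 0.14; edgeR adjusted p = 0.0856). H2-Eb2, H2-Oa, H2-Ob, H2-DMb2 and the costimulatory gene Cd86 had no count in OFBI libraries and 0 to 8 in each Naive library, too few to compare.

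Among 19 genes that bind class II promoters or carry the interferon gamma signal, 18 were tested and edgeR called 1, while DESeq2 called 3. Ifngr2, the signalling chain of the interferon gamma receptor, had 40.5, 49.0 and 43.7 CPM in OFBI libraries, all below the 61.9, 71.7 and 72.5 of Naive libraries. It fell by 0.63 on the log2 scale (SE 0.17; edgeR adjusted p = 0.0478). That call was lost with limma-voom (adjusted p = 0.132), and also with no count filter, with either thinning, with counts divided by 4, with the GC and length correction and without OFBI replicate 1. DESeq2 also called Socs1, an inhibitor of interferon signalling that interferon gamma induces, and Creb1, which binds CRE boxes. Socs1 had 12.0, 8.64 and 14.0 CPM in OFBI libraries, all above the 3.57, 4.85 and 3.94 of Naive libraries (log2 fold change 1.47, SE 0.46; adjusted p = 0.0661 with edgeR and 0.000884 with DESeq2). Creb1 had 24.4, 34.2 and 13.0 CPM in OFBI libraries, all below the 62.7, 50.5 and 44.7 of Naive libraries (log2 fold change -1.09, SE 0.34; adjusted p = 0.0657 with edgeR and 0.0153 with DESeq2). The median of the list was -0.06. Ifng itself had 4, 0 and 0 counts in OFBI libraries and 12, 0 and 0 in Naive libraries and was not tested. Rfx5, a subunit of the X box complex, was at 29.7, 17.9 and 11.2 CPM in OFBI and 35.6, 18.0 and 20.1 in Naive (edgeR adjusted p = 0.699). Ifng, Rfx5, Socs1 and Creb1 were chosen after their values were seen.

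The wider set of dendritic cell genes was divided. Of 26, 16 were tested, 3 were higher and 1 lower in OFBI, with a median log2 fold change of 0.49. Ccr7, the chemokine receptor of migrating dendritic cells and of naive T cells, had 93, 22 and 40 counts in OFBI libraries and 38, 71 and 74 in Naive libraries, so that the shallower OFBI libraries held about as many counts. Its level was 24.3 ± 15.6 CPM in OFBI and 1.30 ± 0.481 in Naive (log2 fold change 4.20, SE 0.74; edgeR adjusted p = 0.0171), with no overlap.

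Csf2ra, the alpha chain of the GM-CSF receptor, had 46.7, 57.3 and 44.7 CPM in OFBI libraries, all above the 22.3, 20.1 and 26.4 of Naive libraries (log2 fold change 1.12, SE 0.22; edgeR adjusted p = 0.022). Runx3, a transcription factor of T cells and Langerhans cells, had 8, 12 and 4 counts in OFBI libraries and 64, 34 and 28 in Naive libraries, or 3.34 ± 0.758 CPM against 0.871 ± 0.345 (log2 fold change 1.92, SE 0.53; edgeR adjusted p = 0.0478). Its call was lost with counts divided by 4 (adjusted p = 0.0787), when any OFBI library was left out, and with scaling by library size alone. The list held 1 higher call with the GC and length correction, with all libraries thinned to OFBI replicate 3 and with the replicate block. Ccr7 and Csf2ra were thus not both called in any of these settings. Cd24a, which epithelial cells also express, was lower in OFBI at 75.7, 116 and 51.2 CPM, against 203, 224 and 249 CPM in Naive (log2 fold change -1.46, SE 0.28; edgeR adjusted p = 0.0208).

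Many genes that define dendritic cell subsets were hardly detected in either group, but others of the list were detected. Ly75 had 4, 24 and 0 counts in OFBI libraries and 409, 360 and 343 in Naive libraries (log2 fold change -1.24, SE 0.93; edgeR adjusted p = 0.404). Sirpa, Cadm1 and Tcf4 had counts in every library and were not called (edgeR adjusted p = 0.223, 0.759 and 0.831). Flt3, Batf3, Cd209a, Clec10a, Itgae, Siglech, Spib and Clec4a2 had no count in OFBI libraries and at most 16 in a Naive library, and Xcr1 and Clec9a had none in any library. Zbtb46, a factor of classical dendritic cells, had 0, 12 and 0 counts in OFBI libraries and 79, 53 and 77 in Naive libraries. Zbtb46, Ly75, Sirpa, Cadm1 and Tcf4 were chosen after their values were seen, as was Ptprc below.

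**Figure D5:**
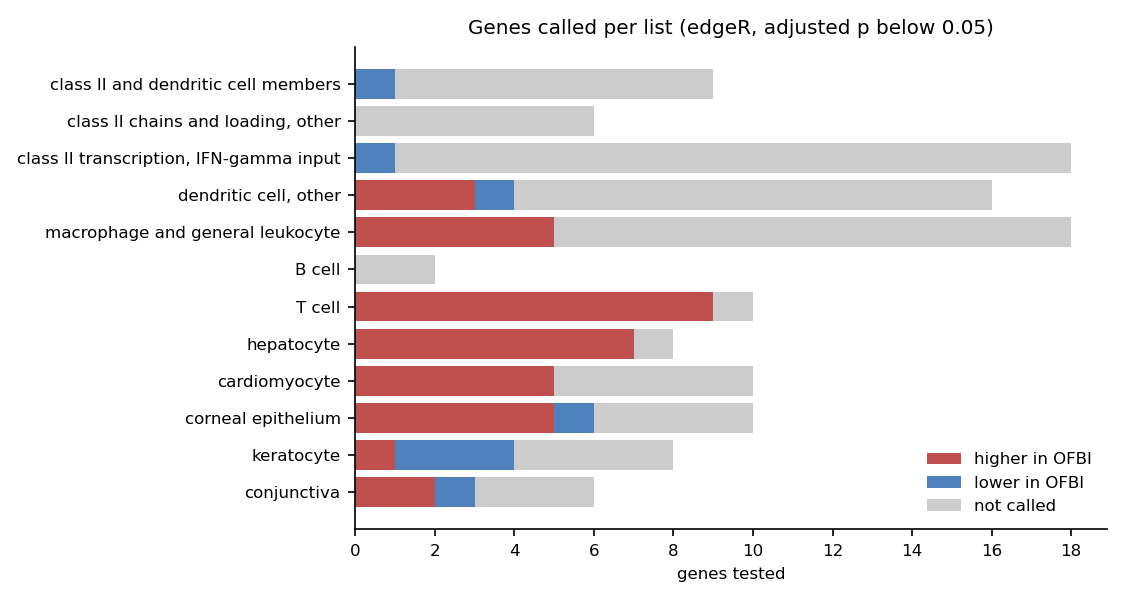
Number of tested genes of each list (x axis) that were higher in OFBI, lower in OFBI or not called (edgeR, adjusted p below 0.05). Of the members 1 of 9 was called and of the other class II chain and loading genes 0 of 6, while 9 of 10 tested T cell genes and 7 of 8 hepatocyte genes were higher in OFBI.

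Genes of other cells that carry class II or accompany it moved in the same libraries, though not all in the same direction. Of 21 macrophage and general leukocyte genes, 18 were tested, 5 were higher and 0 lower by edgeR, with a median log2 fold change of 0.31. Cd68, Itgam and Mrc1 had negative log2 fold changes of -1.46, -0.69 and -0.63 without an edgeR call. Cd163, Lyve1 and Aif1 had no count in any OFBI library. Genes of this list without a call were picked after their values were seen. The complement genes C1qa, C1qb and C1qc rose by 1.79, 1.72 and 1.62 on the log2 scale (SE 0.38, 0.41 and 0.40; edgeR adjusted p = 0.0245, 0.0322 and 0.0345), and Laptm5 by 2.06 (SE 0.53; edgeR adjusted p = 0.0396). With limma-voom the calls of Laptm5 (adjusted p = 0.0611) and C1qc (adjusted p = 0.0528) were lost, and with the GC and length correction those of C1qa, C1qb, C1qc and Laptm5 (edgeR adjusted p = 0.0653, 0.0692, 0.0595 and 0.0512). The summed level of that list was 257, 276 and 655 CPM in OFBI libraries and 291, 276 and 260 in Naive libraries. Spi1 alone gave 260 of the 655 CPM in OFBI replicate 3, against 4.33 and 0 in the other OFBI libraries. Ptprc, the common leukocyte antigen CD45, had 8.03, 8.32 and 42.8 CPM in OFBI and 3.63, 3.12 and 2.77 in Naive (log2 fold change 2.57, SE 0.76; edgeR adjusted p = 0.0568). DESeq2 called Ptprc higher (adjusted p = 0.0039).

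Set against Ptprc within each library, Cd74 and H2-Ab1 stood lower in OFBI, and the other class II genes were not set against it. Cd74 to Ptprc per kilobase was 41.1, 40.3 and 13.0 in OFBI libraries and 66.7, 102 and 134 in Naive libraries, without overlap. H2-Ab1 to Ptprc was 9.05, 7.41 and 1.55 in OFBI and 10.8, 14.9 and 15.5 in Naive, also without overlap. Irf8 to Ptprc was 3.99, 0.399 and 1.24 in OFBI and 3.36, 1.83 and 3.54 in Naive, with overlap. These ratios were set up with the higher OFBI level of Ptprc known and were not tested.

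T cell genes were higher in OFBI: of 12 analysed, 10 were tested and 9 called, with a median log2 fold change of 3.93, and Zap70, Cd2, Cd3e and Cd3g had the smallest p. Zap70, a kinase of the T cell receptor, had 5.56, 2.88 and 3.72 CPM in OFBI libraries and 0.434, 0.323 and 0.484 in Naive libraries (log2 fold change 3.29, SE 0.51; edgeR adjusted p = 0.0131). The summed level was 126, 46.4 and 340 CPM in OFBI libraries and 12.1, 12.4 and 11.3 in Naive libraries. The number of T cell calls was 5 after thinning Naive libraries to OFBI replicate 1 and 2 after thinning all libraries to OFBI replicate 3. OFBI replicate 2, the lowest in summed level, was also the OFBI library with the lowest Irf8 and Ccr7. It was the lowest OFBI library in the summed heart genes too, at 29.1 CPM, though not in the summed liver genes. The pattern was thus not particular to T cell genes. B cell genes, the other main source of class II, gave 7.11, 0 and 4.65 CPM in OFBI and 28.7, 28.2 and 23.6 in Naive. Of 11 B cell genes, 8 had no count in OFBI, among them the defining Ms4a1 and Cd79a, which had 0 to 5 in each Naive library. Of the 2 tested none was called by edgeR: Blnk, which gave most of the Naive sum and is not confined to B cells, was at 5.56, 0 and 0 CPM in OFBI and 27.1, 26.2 and 21.6 in Naive (log2 fold change -3.49, SE 1.01; edgeR adjusted p = 0.0533), and DESeq2 and limma-voom called Blnk lower. For Cd79b the fitted log2 difference was 1.06 (SE 0.98; edgeR adjusted p = 0.499).

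Genes known mainly from liver and heart were present too, some of them in all libraries. Hepatocyte genes summed to 238, 269 and 1210 CPM in OFBI libraries and 59.8, 75.3 and 80.0 in Naive libraries, with 7 of 8 tested genes higher, led by p by Trf, Alb, Apoa1 and Fgg. Trf, the iron carrier transferrin, had 79.4, 73.3 and 88.4 CPM in OFBI libraries and 28.5, 38.2 and 36.8 in Naive libraries. With Ttr and Cps1 it gave most of the Naive sum, so transcripts of these genes were present in Naive libraries too. Which cells they came from was not tested. Albumin had 60.9, 102 and 641 CPM in OFBI libraries and 1.03, 0.603 and 4.14 in Naive libraries (Alb, log2 fold change 7.10, SE 1.28; edgeR adjusted p = 0.0179). Cardiomyocyte genes summed to 185, 29.1 and 239 CPM in OFBI and 20.7, 24.1 and 19.3 in Naive, with 5 of 10 higher, led by Myl3, Nppa, Tnni3 and Myh6. The part of these tissues in the levels of Cd74, Irf8 and the other members was not tested.

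The tissue itself carried its label. Corneal epithelial genes summed to 60800, 68900 and 79200 CPM in OFBI libraries and 31700, 30800 and 30400 in Naive libraries. Of the 10 tested, 5 were higher, with Krt14, Krt12, Krt15 and Krt5 first by p, and 1, Trp63, was lower. Keratocyte genes summed to 195, 247 and 131 CPM in OFBI and 346, 338 and 318 in Naive, with Dcn, Ptgds and Col8a1 lower and Thbs4 higher of 8 tested. Conjunctival genes summed to 4810, 5170 and 6030 CPM in OFBI and 4050, 3560 and 3330 in Naive, with Krt13 and Krt4 higher and Muc4 lower of 6 tested. These shifts in summed transcript levels stood beside every difference in the class II genes, and their part in it was not tested. Whether they came from cell numbers or from RNA per cell was not tested either.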

How the data were processed

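Corneal RNA was purified with an RNeasy kit, and stranded KAPA libraries were made from 2 µg each, per the labels' protocols. Per the submitters' processing notes, the tools included HISAT2 and StringTie, with FastQC and DESeq2, and the build was GRCm38. Their roles and versions were not known for this work. The authors deposited estimated counts per gene as whole numbers, without scaling, per the values of the files. The 64 rows that shared 31 symbols were summed; 26 rows with names turned into dates were kept.

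Genes were tested on these counts with edgeR 4.0.16 (R 4.3.3): filterByExpr (a cutoff of 0.441 CPM), TMM scaling, a quasi-likelihood fit on group alone, two-sided, with Benjamini-Hochberg adjustment over 13941 genes at 0.05. The script was tested on simulated data. DESeq2 1.42.0, limma-voom 3.58.1, other scalings and filters, thinning, counts divided by 4, a GC and length correction, a replicate block and leaving out each library were alternatives. The series' design text calls the pools biological replicates, and p-values measure the spread between them. Coordinates and exon lengths come from GENCODE mouse release 21 on GRCm38, which matched 98.7% of symbols. Besides the 10 members, up to 4 called genes per list, by smallest p, or 2 tested genes where none was called, are named. Members, lists and ratios were chosen with earlier results of these data known.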

Additional observations from a re-analysis of the deposited data

How the results depend on the processing

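The number of genes called over the whole table was 2619, against 1639 when Naive libraries were thinned to the depth of OFBI replicate 1, 1380 when all were thinned to OFBI replicate 3, 793 with a replicate block and 473 with the block and a GC and length correction, and 0 to 3676 when 1 library was left out. In the same order, the number of members called was 1, against 0, 0, 0 and 0, with 0 also for counts divided by 4, and 0 to 2 with 1 library left out. These are edgeR counts: without OFBI replicate 1, DESeq2 and limma-voom each called 4 members, Ciita, Itgax, H2-Aa and H2-DMb1. The replicate block left 0 of 5 macrophage and leukocyte calls and 1 of 9 T cell calls. In the other class II and dendritic cell lists, 5 genes were called, against 9 with DESeq2, 3 without a filter, 3 and 3 with the thinnings, 2 with the GC and length correction, 2 with the replicate block, 0 with both, and 0 to 9 with 1 library left out. The same replicate numbers gave no sign of shared samples, as their deviations correlated at -0.03, -0.03 and 0.01. In OFBI libraries this shallow, counting noise could hide a shared part, so the check cannot exclude one. The block is therefore not read as a paired test. Under the block Itgax had an adjusted p of 0.275, and 0.314 with the GC and length correction. Over the 12 alternatives in which it was tested it was called lower in 9, with adjusted p from 0.00996 to 0.314. With either thinning or any Naive library left out it was not tested by edgeR, and those settings are not counted here. The repeated calls rest on the same 0 counts, so they are not further support. The log2 fold change of H2-Eb1, at -0.02, changed sign to 0.004 and 0.12 with the thinnings and 0.26 with counts divided by 4, and ranged from -1.05 to 0.46 with 1 library left out. H2-DMa, at 0.78, was at -0.12 with limma-voom, -0.41 with the block and -0.56 with the block and GC and length correction, and ranged from -1.55 to 1.26 with 1 library left out. Of 136 values of members under an alternative, 121 kept direction and side of the threshold, 10 changed sign, 3 lost a call and 2 gained one. Members that an alternative did not test are not among the 136, so calls of Itgax lost in that way are not counted. The cause of these changes was not tested. Of the members, 3 had a count in all OFBI libraries and 2 in none, so depth limits most of these values.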

Other observations

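Spi1, which encodes PU.1, a factor of myeloid cells and B cells, had 14, 0 and 279 counts in OFBI libraries and 201, 130 and 123 in Naive libraries, or 4.33, 0 and 260 CPM, against 3.97, 2.80 and 2.71. OFBI replicate 3, the shallowest library, thus held more counts of Spi1 than any Naive library, while it had none of H2-Aa, H2-Eb1 or H2-DMb1, and the log2 fold change of 4.73 (SE 1.81) did not pass edgeR's test (adjusted p = 0.117). The macrophage genes Cd163, Lyve1 and Aif1 had no count in OFBI libraries and 4 to 57 counts in each Naive library. Cd68, a lysosomal protein of macrophages, had 12, 15 and 8 counts in OFBI libraries and 962, 546 and 509 in Naive libraries. Its levels did not overlap between the groups (log2 fold change -1.46, SE 0.48; edgeR adjusted p = 0.0773), and DESeq2 called it lower (adjusted p = 0.0145). C1qa, C1qb and C1qc were higher in OFBI in the same libraries. These genes were chosen after their values were seen.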
